A study of Mus musculus with 4 samples.

Results

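The AP-1 transcription factors described here are 10 genes, Jun, Junb, Jund, Fos, Fosb, Fosl2, Atf3, Jdp2, Batf and Batf3, taken by symbol from the 27179 genes of a raw count table. All 10 were present in the table. The cells were plasmacytoid dendritic cells (pDCs), which sense nucleic acids through endosomal Toll-like receptors. They were C57BL/6 cells raised from bone marrow precursors over 8 days of culture with Flt3 ligand and then exposed for 24 h to 1 µg/ml imiquimod, a TLR7 ligand. All 4 libraries share this stimulation, and no unstimulated library was analysed here. The pDCs were sorted on SiglecH and CD11b and divided by blue fluorescent protein (BFP), which stands for Cxcl10 expression, into a BFP-positive and a BFP-negative fraction of 2 libraries each. The labels do not say how the BFP reporter was made, on which side of the CD11b gate the cells lay, or whether replicates came from separate mice, so p-values measure the spread between these samples, which may be technical. For the BFP-negative samples the labels disagree on CXCL10, which the population entry calls positive and the series design negative, and the groups here rest on BFP in the titles.

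AP-1 is a family of dimeric transcription factors with a basic leucine zipper, in which the basic part touches DNA and the zipper holds a pair of proteins together. Jun proteins can pair with themselves or with Fos proteins, and such pairs activate genes through the TRE, a short palindrome-like DNA element, after MAP kinase signalling. Fos proteins cannot form stable pairs of their own and depend on Jun partners. Batf and Batf3 lack a transactivation domain of their own, pair with Jun proteins and join Irf4 or Irf8 on composite elements, while Jdp2 and Atf3 are best known as repressors at AP-1 and CRE sites. Toll-like receptor signalling is a classic inducer of several of these genes, and Batf3 is known as a factor of cross-presenting conventional dendritic cells.

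The promoters of the genes that moved, and of Fos, are shown because the family is known to be regulated in part by its own members. Each window runs from 250 bases before the annotated start to 50 bases from it on, 5′ to 3′ on the gene's strand, from RefSeq on GRCm38.p6. Capitals mark a match to 1 of the searched motifs on either strand. These were the TRE (TGAGTCA), the CRE (TGACGTCA), the TRE-like element TGACATCA known from the Jun promoter, the interferon response core GAAANNGAA, the CArG box and the kappa B consensus. Jun lies on the minus strand (window chr4:95052173-95052472), as does Junb (chr8:84978699-84978998). Batf (chr12:85686470-85686769), Fos (chr12:85473640-85473939) and Jdp2 lie on the plus strand. Of the 3 annotated windows of Jdp2, the one with a match is shown (chr12:85599768-85600067).

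Jun: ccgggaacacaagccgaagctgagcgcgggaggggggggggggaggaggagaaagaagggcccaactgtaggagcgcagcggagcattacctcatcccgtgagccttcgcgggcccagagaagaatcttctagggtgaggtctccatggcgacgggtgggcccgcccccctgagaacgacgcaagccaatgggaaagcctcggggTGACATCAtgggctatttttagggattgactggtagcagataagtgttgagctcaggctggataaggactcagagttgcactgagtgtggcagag
Junb: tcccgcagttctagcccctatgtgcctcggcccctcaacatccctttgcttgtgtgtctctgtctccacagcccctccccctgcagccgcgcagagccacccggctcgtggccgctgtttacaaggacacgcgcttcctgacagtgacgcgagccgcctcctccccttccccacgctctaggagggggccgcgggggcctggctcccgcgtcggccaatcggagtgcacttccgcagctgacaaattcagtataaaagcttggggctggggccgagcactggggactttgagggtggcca
Fos: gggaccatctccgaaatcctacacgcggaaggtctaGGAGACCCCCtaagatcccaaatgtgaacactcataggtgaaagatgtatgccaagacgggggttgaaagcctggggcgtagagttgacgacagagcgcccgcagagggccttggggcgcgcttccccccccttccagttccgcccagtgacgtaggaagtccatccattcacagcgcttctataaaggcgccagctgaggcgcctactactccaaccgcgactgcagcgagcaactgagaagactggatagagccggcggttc
Jdp2: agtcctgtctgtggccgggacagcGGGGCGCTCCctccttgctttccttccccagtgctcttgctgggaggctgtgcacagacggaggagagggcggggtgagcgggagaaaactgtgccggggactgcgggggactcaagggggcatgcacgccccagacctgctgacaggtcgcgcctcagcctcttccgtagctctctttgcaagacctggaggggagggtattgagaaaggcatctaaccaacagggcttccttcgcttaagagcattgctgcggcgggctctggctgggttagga
Batf: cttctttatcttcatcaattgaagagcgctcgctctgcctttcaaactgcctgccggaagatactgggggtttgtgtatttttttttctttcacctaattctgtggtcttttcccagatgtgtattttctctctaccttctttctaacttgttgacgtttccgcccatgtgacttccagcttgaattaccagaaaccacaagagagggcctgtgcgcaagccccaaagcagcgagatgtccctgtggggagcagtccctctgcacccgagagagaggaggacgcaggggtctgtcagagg

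The capitals in the Jun promoter are the TRE-like element, which begins 45 bases before the start. Over all 32851 promoter windows of the same length 3.62% hold that element, 5.20% a TRE and 1.79% a CRE. None of the 12 member windows held the TRE, the CRE or the CArG box in exactly these letters. Sites further from the start were not searched, so the absence of a match covers these windows only. The kappa B consensus, the capitals in Fos and Jdp2, was found in 4 of the 12 windows, those of Fosl2 and Fosb included, and in 8.46% of all windows. That consensus is rich in G and C. The 4 windows with a match held 58.7% to 68.3% G and C, against a median of 52.7% over all windows. The part of base content in the matches was not tested. The interferon response core was found in the windows of Jund and Fosl2 and in 8.56% of all windows, and the windows of Junb and Batf held no searched motif.

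Jun and Junb were higher, and Batf and Jdp2 lower, in BFP-positive than in BFP-negative cells. The remaining tested members, Jund, Fos, Atf3 and Batf3, did not pass the test, and Fosb and Fosl2 had too few counts to be tested. Of 10 members, 8 passed the filter on low counts, which asks for about 10 counts in at least 2 libraries. Among the 8, 2 were called higher and 2 lower at an adjusted p under 0.05 by the quasi-likelihood test of edgeR, with p-values adjusted by Benjamini-Hochberg over the 11706 genes tested. Over all tested genes 11.1% were called, 7.60% higher and 3.51% lower. All 8 members had groups that did not overlap, which 54.2% of all tested genes also showed. Levels below are CPM, counts scaled to a library total corrected by TMM, and log2 fold changes compare BFP-positive with BFP-negative cells and carry their standard error (SE).

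**Figure D1:**
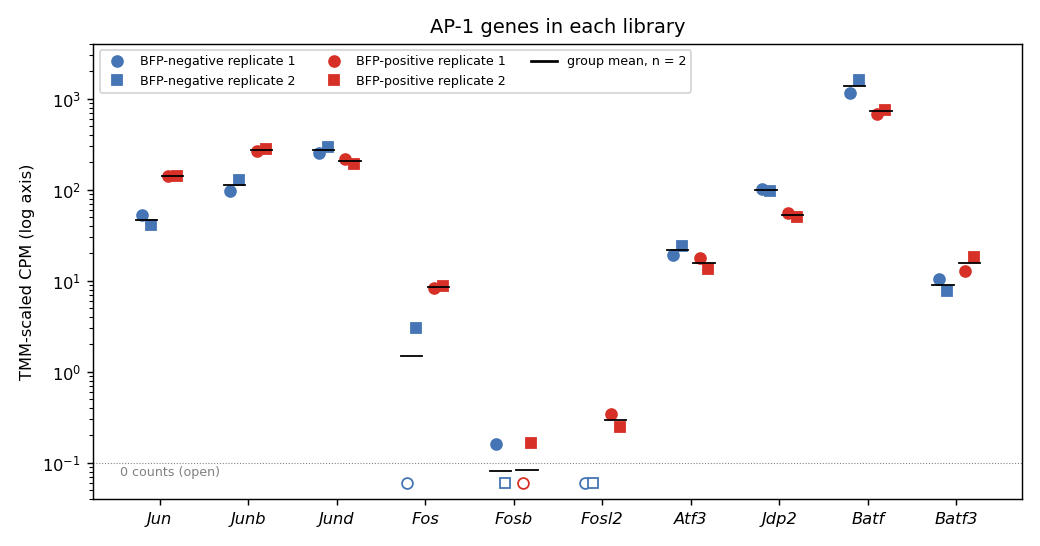
TMM-scaled CPM (log axis) of each AP-1 gene in each of 4 libraries, with BFP-negative in blue, BFP-positive in red and the group mean (n = 2) as a bar; open symbols at the bottom stand for 0 counts. Jun and Junb are higher in both BFP-positive libraries, Batf and Jdp2 lower, and Fos has no count in BFP-negative replicate 1.

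Jun, the founding member of the family (Entrez gene 16476, chromosome 4, 95049036 to 95052222, 1 exon), was at 52.2 and 41.3 CPM in BFP-negative replicates 1 and 2 and at 143.0 and 143.1 CPM in BFP-positive replicates 1 and 2. Both BFP-positive libraries lay far above both BFP-negative ones and close to each other. The mean rose 3.06-fold, from 46.8 ± 7.71 to 143.1 ± 0.115 CPM (SD, n = 2), a log2 fold change of 1.61, SE 0.17 (edgeR's adjusted p = 0.000300).

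Junb, which can replace Jun in part and is known to restrain it in other settings (Entrez gene 16477, chromosome 8, 84976909 to 84978748, 1 exon), was at 98.0 and 128.2 CPM in the BFP-negative and 264.4 and 281.4 CPM in the BFP-positive libraries. The groups were apart, with the wider spread in BFP-negative cells. The rise was 2.41-fold, from 113.1 ± 21.4 to 272.9 ± 12.03 CPM, a log2 fold change of 1.27, SE 0.16, adjusted p = 0.000657 in edgeR's test.

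Jund, the Jun gene known for steady expression in resting cells (Entrez gene 16478, chromosome 8, 70697739 to 70700616, 1 exon), was at 256.1 and 296.8 CPM against 220.5 and 192.4 CPM. It was lower in both BFP-positive libraries but did not pass the test, with a log2 fold change of -0.42, SE 0.14 and adjusted p = 0.0857. Its unadjusted 95% interval ran from -0.73 to -0.11. Jund lay near the threshold, since it passed with library totals in place of TMM (adjusted p = 0.0460) and in DESeq2 (adjusted p = 0.0485). Exon numbers are from GENCODE M21.

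Fos genes were scarce. Fos (Entrez gene 14281, chromosome 12, 85473890 to 85477274), the immediate early partner of Jun, had 0 and 38 counts in the BFP-negative libraries and 96 and 106 in the BFP-positive ones. Both BFP-positive libraries were higher, but the BFP-negative pair disagreed about whether the RNA was detected at all. The BFP-positive level of 8.48 ± 0.344 CPM was 2.83-fold that of BFP-negative replicate 2 alone and at least 35.2-fold above the limit of 3 counts that goes with the 0 of BFP-negative replicate 1. Its log2 fold change, 2.49, SE 1.07, did not pass (adjusted p = 0.181 in edgeR's test, 95% interval 0.12 to 4.86). With BFP-negative replicate 1 left out it was 1.50, and Fos passed without BFP-negative replicate 2 (adjusted p = 8.13e-05), where the fitted 9.69 rests on 0 counts and is no measured size. Limma-voom gave 4.59 (adjusted p = 0.0572). BFP-negative replicate 2, the library with the 38 counts, also held more granulocyte, mast cell and basophil marker RNA, with a summed 104.1 CPM over 12 genes against 13.5 CPM in BFP-negative replicate 1 and 13.2 and 31.4 CPM in the BFP-positive libraries. The eosinophil gene Prg2 gave 79.7 of those 104.1 CPM, and the part of such cells in the Fos counts was not tested.

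Fosb (Entrez gene 14282, chromosome 7, 19302696 to 19310118), a further immediate early partner of Jun, had 2 and 0 counts in BFP-negative and 0 and 2 counts in BFP-positive cells. Fosl2 (Entrez gene 14284, chromosome 5, 32136472 to 32157840), which encodes Fra-2, had no count in BFP-negative cells and 4 and 3 counts in BFP-positive cells. Neither was tested, and at this depth a library detects little below the 0.237 to 0.257 CPM that 3 counts are worth; these limits cover counting error only.

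Batf (Entrez gene 53314, chromosome 12, 85686720 to 85709087, 3 exons) was at 1171 and 1600 CPM in the BFP-negative libraries and at 689 and 761 CPM in the BFP-positive ones. The lowest BFP-negative library stood well above the highest BFP-positive one, although the BFP-negative pair was far apart. The mean was 1.91-fold lower in BFP-positive cells, 1386 ± 303 against 725 ± 51.4 CPM, a log2 fold change of -0.93, SE 0.15, adjusted p = 0.00324 in edgeR's test. The log2 fold change was -0.67 with BFP-negative replicate 2 left out and -1.14 with replicate 1 of that group left out, and the call held without any 1 of the 4 libraries.

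Jdp2 (Entrez gene 81703, chromosome 12, 85598656 to 85639878, 4 exons), the Jun dimerization protein, was at 101.5 and 98.1 CPM against 55.1 and 50.7 CPM. Replicates lay close together in both groups. The fall was 1.89-fold, from 99.8 ± 2.39 to 52.9 ± 3.11 CPM, a log2 fold change of -0.92, SE 0.16, adjusted p = 0.00588 in edgeR's test.

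Atf3 (Entrez gene 11910, chromosome 1, 191170296 to 191183333), a stress-induced factor known to dampen Toll-like receptor responses, was at 19.0 and 24.1 CPM in BFP-negative and 17.9 and 13.4 CPM in BFP-positive cells. The nearest libraries of the groups almost touched, and the log2 fold change of -0.46, SE 0.29 did not pass (adjusted p = 0.389, edgeR, 95% interval -1.11 to 0.20). Batf3 (Entrez gene 381319, chromosome 1, 191098414 to 191108943) was at 10.4 and 7.65 CPM against 12.8 and 18.4 CPM. It was higher in both BFP-positive libraries with a wide spread, and its log2 fold change of 0.79, SE 0.36 did not pass (adjusted p = 0.207, edgeR, 95% interval -0.01 to 1.58).

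**Figure D2:**
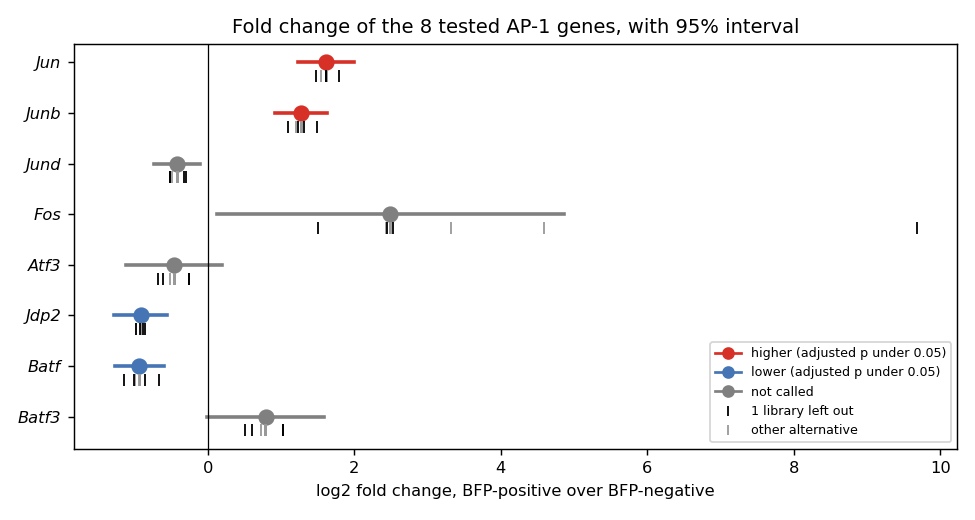
Log2 fold change, BFP-positive over BFP-negative, of the 8 tested AP-1 genes (dot) with its unadjusted 95% interval (bar); ticks under each gene give the 11 alternatives, black where 1 library was left out. Jun and Junb stay above and Batf and Jdp2 below zero in each alternative, while Fos runs from 1.50 to 9.69, the last fitted to 0 counts.

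The 4 calls of Jun, Junb, Batf and Jdp2 held under all 11 alternatives, which changed the scaling, the filter, the test, the dispersion, the replicate block or the libraries. In log2, Jun ran from 1.47 to 1.80, Junb from 1.10 to 1.50, Batf from -1.14 to -0.67 and Jdp2 from -0.98 to -0.85, with adjusted p of at most 0.000403, 0.000689, 0.00508 and 0.0348 in that order.

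Levels between genes were compared as RPKM, in which reads are divided by the gene's length and the size of the library, taken from the authors' deposited log2 RPKM values. Batf was the highest member in every library, at 1342 and 1785 RPKM in BFP-negative and 748 and 819 RPKM in BFP-positive cells. By RPKM it ranked 83rd and 42nd in BFP-negative and 166th and 141st in BFP-positive cells when set among the 11706 tested genes. In BFP-negative cells Jund followed at 92.2 and 104.0 RPKM, then Junb at 55.1 and 70.3 and Jdp2 at 55.9 and 52.6 RPKM, whose ranges overlapped. Batf3, at 15.1 and 10.9 RPKM, overlapped both Jun, at 17.0 and 13.1, and Atf3, at 9.94 and 12.3, while Jun lay above Atf3 in both libraries. In BFP-positive cells the order after Batf was Junb at 141.1 and 148.7, Jund at 75.2 and 65.0, Jun at 44.0 and 43.7, Jdp2 at 28.8 and 26.2, Batf3 at 17.7 and 25.1, and Atf3 at 8.92 and 6.61 RPKM. No neighbours in that order overlapped.

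Set against each other, the members kept a different balance of RNA in the 2 groups, which is given as a description with no test. Batf RNA was 24.3 and 25.4 times that of Junb per length in BFP-negative cells and 5.30 and 5.51 times in BFP-positive cells. Against Jun, Batf was 79.0 and 136.4 times as high in BFP-negative and 17.0 and 18.8 times in BFP-positive cells. Jund gave most of the Jun subfamily RNA in BFP-negative cells (56.1% and 55.5% of summed RPKM) and Junb most of it in BFP-positive cells (54.2% and 57.8%). Jun itself went from 10.3% and 6.99% to 16.9% and 17.0% of that sum. Together the Jun genes made up 10.3% and 9.14% of the members' summed RPKM in BFP-negative and 24.4% and 22.6% in BFP-positive cells, and Batf with Batf3 85.5% and 87.6% against 71.7% and 74.1%. The Fos genes made up at most 0.369% in any library. Batf and Jdp2 kept to ratios of 24.0 and 33.9 in BFP-negative and 26.0 and 31.2 in BFP-positive cells, which overlapped.

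**Figure D3:**
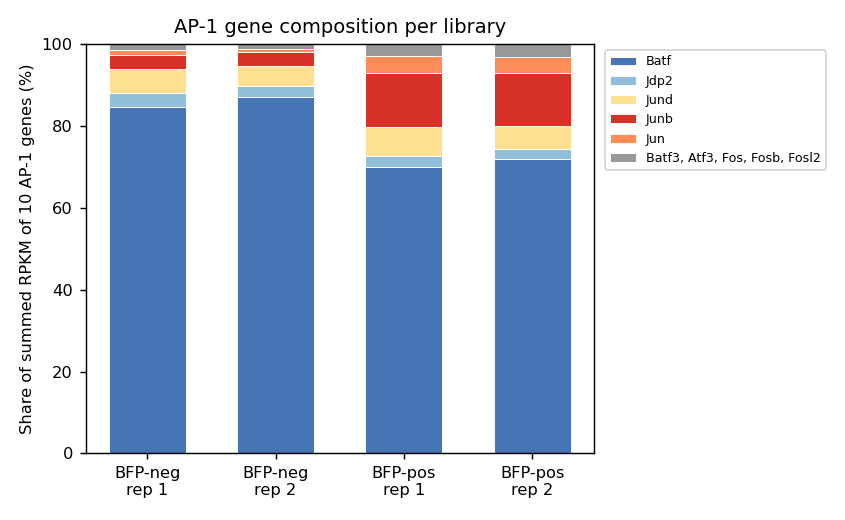
Share of the summed RPKM of the 10 AP-1 genes (percent, from 0 to 100) that each gene or gene group gives in each of the 4 libraries. Batf is the largest block in each library, and the Jun and Junb blocks are larger in both BFP-positive libraries.

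Other genes around AP-1 were read from lists chosen with earlier results of these data known. Their counts of calls are read beside the 7.60% of all tested genes called higher and the 3.51% called lower. The median log2 fold change of each list is read beside that of -0.02 over all tested genes. Of 4 further AP-1 genes, Atf2 and Atf7 were tested and neither passed in edgeR, DESeq2 or limma-voom or had an unadjusted p under 0.05 in edgeR (median -0.16). Fosl1 had no count. Batf2, which is known as an interferon-inducible Batf paralog in macrophages, had 0 counts in both BFP-negative libraries and 9 in each BFP-positive one, at least 6.33-fold higher against 3 counts over the BFP-negative group, and was too low to be tested. Of 12 Maf, Bach and Nfe2 genes, which share the leucine zipper fold, 8 were tested and 1 rose (median -0.18). The gene that rose passed the filter on low counts only through the BFP-positive libraries, so a fall could not have been called. That gene, Nfe2, had 1 and 5 counts against 48 and 51 (log2 fold change 4.07, SE 0.98, adjusted p = 0.0246, edgeR), and the call was lost in limma-voom (adjusted p = 0.0525), without replicate 1 of the BFP-negative cells (adjusted p = 0.0648) and without either library of the BFP-positive cells (adjusted p = 0.103 and 0.114).

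Of 19 other basic leucine zipper genes, 1 rose and 1 fell (median -0.13). Cebpd, a C/EBP factor of inflammatory responses, rose from 63.3 and 61.0 to 132.9 and 136.6 CPM (log2 change 1.12, SE 0.15, adjusted p = 0.00122, edgeR). Xbp1, the factor of the unfolded protein response that pDCs are known to express strongly, fell from 2561 and 2517 to 1751 and 1578 CPM (log2 change -0.61, SE 0.10, adjusted p = 0.00478, edgeR; adjusted p = 0.0593 without BFP-positive replicate 2). The Irf partners of Batf proteins did not pass in edgeR, DESeq2 or limma-voom, and Irf4 had an unadjusted p under 0.05. Irf8 was at 2740 and 3251 against 2560 and 2547 CPM (adjusted p = 0.237), and Irf4 at 5.79 and 9.23 against 12.5 and 22.3 CPM (log2 change 1.21, SE 0.40, adjusted p = 0.0862, edgeR). Irf4 passed with the replicate block (adjusted p = 0.0305), without BFP-negative replicate 2 (adjusted p = 0.0281) and without BFP-positive replicate 1 (adjusted p = 0.0255).

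Of 22 MAP kinase genes and kinases above them, 21 were tested, 5 rose and 0 fell in edgeR's test (median 0.32). By that test 7.60% of all tested genes were called higher and 3.51% lower. At an unadjusted p under 0.05 the list's counts were 6 and 1, and the share over all genes at that limit is not given here. In DESeq2 the counts were 5 and 1 and in limma-voom 5 and 0. Mapk11, a p38 kinase, rose 4.02-fold, from 3.46 and 3.39 to 12.8 and 14.7 CPM (adjusted p = 0.00975). Mapk13, a further p38 kinase, had no count in BFP-negative cells and 17 in each BFP-positive library (adjusted p = 0.0311, edgeR). It passed the filter on low counts only through the BFP-positive libraries, so a fall could not have been called. Map2k1, an ERK kinase kinase, rose from 83.1 and 78.8 to 118.6 and 120.9 CPM (log2 change 0.57, SE 0.15, adjusted p = 0.0382, edgeR), and the 2 others that rose were Mapk3 and Mapk14. The count of 5 was fragile. It was 1 and 2 when BFP-negative replicate 1 or 2 was left out, 3 and 1 when BFP-positive replicate 1 or 2 was left out, and with library totals 3 rose and 1 fell. Mapk11 kept its call in all 11 alternatives. Map2k1 and Mapk13 each lost theirs whichever library was left out (adjusted p from 0.0652 to 0.173 and from 0.147 to 0.184). The Jnk genes that phosphorylate Jun did not pass, with Mapk8 at a log2 fold change of 0.97, SE 0.52 and Mapk9 at -0.26, SE 0.20.

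Of 10 regulators of Jun and Fos proteins, 9 were tested and Mapkapk2, the kinase below p38, rose from 234.1 and 252.5 to 315.0 and 374.1 CPM (list median 0.29; log2 change 0.50, SE 0.13, adjusted p = 0.0394, edgeR). That call was lost with library totals and without replicate 1 of the BFP-negative cells or replicate 2 of the BFP-positive cells (adjusted p = 0.0566, 0.0960 and 0.312, in that order). Of 6 genes of serum response factor and its partners, which act at the Fos promoter, Mkl1 (also called Mrtfa) rose from 11.1 and 9.62 to 33.4 and 38.5 CPM (list median 0.00; log2 change 1.79, SE 0.26, adjusted p = 0.00179, edgeR). Srf itself did not pass (0.24, SE 0.26).

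Genes widely given as AP-1 targets in other cells moved in both directions. Il1b, Cd14 and Itgax were already known to be higher here when the list was drawn up, so it is no independent evidence of a direction. Of 24 genes, 14 were tested, 8 rose and 4 fell (median 1.02), beside 7.60% higher and 3.51% lower over all tested genes. No count was found in any library for 6 genes, Mmp9 and Csf2 among them. Il1b, an inflammatory cytokine gene, was at 9.48 and 14.2 against 265.2 and 286.9 CPM. Cd14, a coreceptor of Toll-like receptors, was at 9.80 and 10.3 against 99.4 and 95.9 CPM. Vim, an intermediate filament gene, rose from 24.5 and 25.6 to 147.4 and 133.9 CPM (log2 change 2.49, SE 0.17, adjusted p = 1.77e-05, edgeR). Those that fell were Plaur, the urokinase receptor gene, from 250.3 and 255.1 to 130.4 and 127.8 CPM (log2 change -0.97, SE 0.13, adjusted p = 0.00109, edgeR), and Tnf, Il6 and Cd44. Without BFP-positive replicate 2 the counts were 6 that rose and 2 that fell. Il6 lost its call there (adjusted p = 0.0791), and Cd44 did so in 3 of the 4 fits with a library left out, all but that without BFP-negative replicate 2 (adjusted p from 0.118 to 0.218).

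Jun and Fos are also known to respond to cell handling and sorting. Genes of that response are read beside the 7.60% of all tested genes called higher and the 3.51% called lower. The share over all genes at an unadjusted p under 0.05 is not given here. Of 17 heat shock and immediate early genes of that response, AP-1 members left out, 4 rose and 0 fell in edgeR's test, DESeq2 and limma-voom alike (median 0.13; 4 and 2 at an unadjusted p under 0.05, and 4 and 2 without BFP-negative replicate 2). These were Zfp36, an mRNA decay factor, from 20.4 and 21.6 to 78.0 and 87.7 CPM (log2 change 1.98, SE 0.19, adjusted p = 0.000158), Ier2, from 15.7 and 15.5 to 50.9 and 45.5 CPM (log2 change 1.63, SE 0.22, adjusted p = 0.00122), Socs3, a feedback inhibitor of cytokine signalling, from 85.8 and 91.6 to 154.3 and 188.5 CPM (log2 change 0.95, SE 0.16, adjusted p = 0.00384), and Btg2. Btg2 passed in only 1 of the 4 fits with a library left out, that without BFP-positive replicate 1 (adjusted p from 0.0528 to 0.300 in the others). The other 13 did not pass, and their log2 fold changes ran from -0.50, SE 0.18 for the chaperone gene Hsp90aa1 to 2.39, SE 1.25 for the immediate early gene Nr4a1. Nr4a1 had 0 and 13 against 37 and 28 counts, so that, like Fos, it was undetected in BFP-negative replicate 1. Hsp90aa1 and the chaperonin gene Hspe1 (-0.43, SE 0.16) were the 2 lower at an unadjusted p under 0.05. The inducible heat shock genes were scarce, with Hspa1a at 10 and 10 against 27 and 16 counts and Hspa1b at 34 and 2 against 2 and 33 counts. Egr1 was at 47 and 37 against 44 and 34 counts and Dusp1 at a log2 fold change of -0.04, SE 0.18. The part of handling in the rise of Jun and Junb was not tested.

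**Figure D4:**
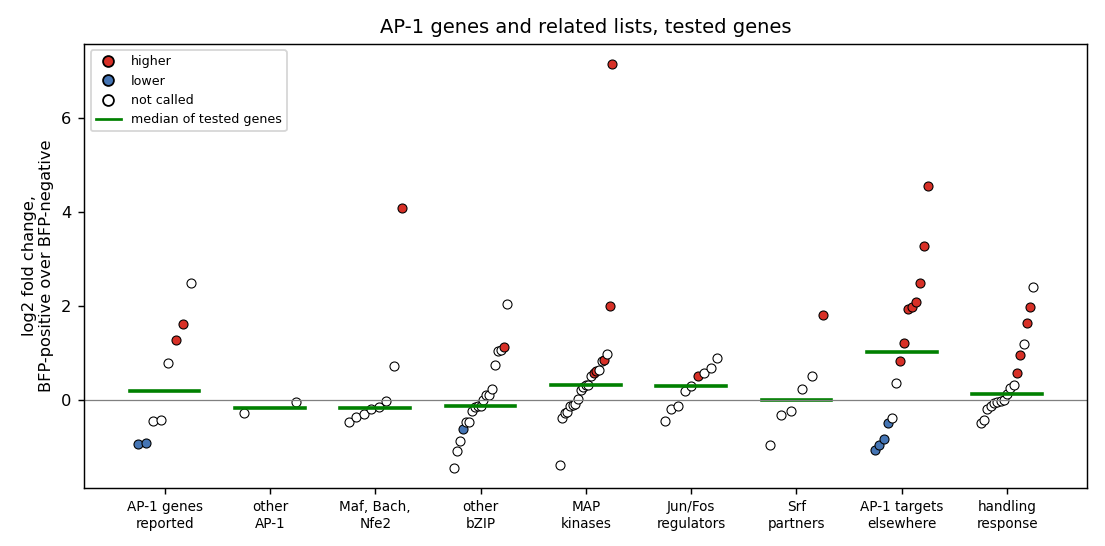
Log2 fold change, BFP-positive over BFP-negative, of each tested gene of the AP-1 family and of 8 related lists (red higher, blue lower, open not called; green bar, median of the tested genes). The AP-1 genes spread on both sides of zero, and the highest MAP kinase point, Mapk13, is a fit to 0 counts in BFP-negative cells.

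Library totals were 11868254 to 12570117 counts. Cxcl10 was at 3 and 19 counts in BFP-negative and 149 and 154 in BFP-positive cells, which checks the labels since its reporter made the groups. The genes of both surface markers of the sort were higher in each BFP-positive library. Siglech was at 611 and 615 against 785 and 820 CPM (log2 change 0.39, SE 0.11, adjusted p = 0.0485, edgeR), a call lost whichever library was left out (adjusted p from 0.0716 to 0.287). Itgam, which encodes CD11b, had 22 and 52 against 112 and 129 counts and did not pass (log2 change 1.78, SE 0.52, adjusted p = 0.0546, edgeR). The part of the gate in the AP-1 differences was not tested. Some markers of cell types also differed between the groups, in both directions. Their calls are read beside the 7.60% of all tested genes called higher and the 3.51% called lower. Of 15 monocyte and macrophage markers, 6 were called higher and 2 lower, their summed level was 743 and 882 CPM in BFP-negative and 1467 and 1655 CPM in BFP-positive cells, and Mertk and C1qa were at 0. Of 16 conventional dendritic cell markers without Batf3, 7 were called higher and 1 lower, with a summed 941 and 961 against 1285 and 1411 CPM. Id2, which was not called, gave 488 and 419 against 509 and 463 CPM of that sum. Of 15 pDC markers, 2 were called higher and 5 lower, with a sum of 24940 and 29690 against 20720 and 19860 CPM, of which Ly6d alone gave 17289 and 20947 against 13612 and 12571 CPM. Without BFP-positive replicate 2, 0 pDC markers were called higher and 2 lower, and without any other 1 library 1 was called higher and 4 or 5 lower. Of 8 B cell markers, 2 were called lower, with 128.4 and 123.3 against 96.3 and 101.1 CPM. The T and NK cell markers summed to 32.1 and 22.6 against 15.3 and 20.2 CPM. Lck, which was not called, gave 21.1 and 18.8 against 10.8 and 10.5 CPM of that sum. Klrb1c, also not called, gave 10.7 and 3.15 against 2.40 and 5.52 CPM, and Cd3g and Eomes had no count. The erythroid markers summed to less than 1 CPM in each library. The part of these cell types in the AP-1 differences was not tested, and in such bulk samples fewer cells of a type and less RNA per cell cannot be told apart.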

How the data were processed

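RNA was isolated with an RNeasy kit, per the labels' protocols, and full-length cDNA was amplified with a SMART-Seq kit, which marks neither strand nor single molecules. Raw gene counts (27179 genes) in 1 table and a file of log2 RPKM values for each library were deposited by the authors; the submitters' processing notes name GRCm38 and mm10 as builds and Subread, featureCounts and limma as tools. Versions, strand setting and multi-mapping are not given in the sources used here, so overlapping genes cannot be told apart. The deposited log2 RPKM values and counts gave the same gene length in all libraries to within 0.383% over 8529 genes with at least 50 counts. Genes were filtered with filterByExpr (minimum count 10, total 15; 11706 tested, 15473 not) and TMM-scaled (factors 0.973 to 1.04), and tested with edgeR 4.0.16 in R 4.3.3 (glmQLFit, group only, 2 residual degrees of freedom, two-sided, Benjamini-Hochberg over all tested genes, threshold 0.05). The biological coefficient of variation was 24.7%. SE is the log2 fold change divided by the square root of F. DESeq2 1.42.0 and limma 3.58.1 served as alternatives. The script was tested on simulated data. Members and lists were chosen with earlier results of these data known; the rule for named genes takes all 10 members, Cxcl10, Siglech and Itgam as genes of the sort, from each list the genes past the threshold (the 3 with the smallest p in full), nearest tested neighbours, and cell type markers that results turn on. List genes named without a call, and Plaur, were chosen after their values were seen. Of 209 list entries 1 matched no gene. Positions are from RefSeq on GRCm38.p6. Member proteins are not shown here.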

Additional observations from a re-analysis of the deposited data

How the results depend on the processing

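Over all tested genes, 890 were higher and 411 lower. Without 1 library the number higher ran from 559 (without BFP-positive replicate 2) to 921 (without BFP-negative replicate 2) and the number lower from 245 (without BFP-positive replicate 1) to 408 (without BFP-negative replicate 1). With the replicate number as a block, 1140 genes were higher and 760 lower. Libraries of the same replicate number share a title code, which the sources used here do not explain. The differences between replicates 1 and 2 in the BFP-negative and BFP-positive cells correlated at 0.06 over 11706 genes. That correlation does not settle whether libraries of the same number were paired. With the block the calls of Jun, Junb, Batf and Jdp2 held and Jund passed as well (adjusted p = 0.0326). Over the 11 alternatives 2 or 3 members were called higher, the added one being Fos without BFP-negative replicate 2, and 2 or 3 lower, the added one being Jund with the block, in DESeq2 and with library totals. Library totals gave 813 genes higher and 574 lower and moved the median of all genes from -0.02 to -0.09 in log2. No alternative turned the sign of a tested member. The cause of these differences was not tested. The low counts of Fos, Fosb and Fosl2 limit what can be said of them at this depth, and 2 libraries a group leave 2 residual degrees of freedom.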

Other observations

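Several AP-1 genes are neighbours on GRCm38. Fos, Jdp2 and Batf lie within 235.2 kb of chromosome 12, with 46.8 kb from the end of Jdp2 to the start of Batf, and no other tested gene lies between them. Both Jdp2 and Batf were lower in BFP-positive cells, while Fos, 121.4 kb before Jdp2, had a log2 fold change of 2.49, SE 1.07, which did not pass. The tested genes that flank the 3 did not pass either, with Tmed10 before Fos at -0.31, SE 0.15 and Flvcr2 after Batf at -0.81, SE 0.47 (125 and 87 counts in the BFP-negative libraries, 45 and 70 in the others). Batf3 and Atf3 lie 61.4 kb apart on chromosome 1 and had log2 fold changes of 0.79 and -0.46, neither called. Prdx2, 2098 bases from Junb, had 5209 and 5425 counts in BFP-negative and 4878 and 5649 counts in BFP-positive cells, a log2 fold change of 0.06, SE 0.12. The nearest tested genes of Jun, Mysm1 and Fggy, were at -0.35, SE 0.34 and 0.55, SE 0.42.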
